A study of Mus musculus with 32 samples.

Results

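The 10 genes described here encode survival and death proteins of the Bcl2 family: the survival genes Bcl2, Bcl2l1 and Mcl1, the effector genes Bax and Bak1, and the BH3-only genes Bcl2l11, Bid, Bad, Bbc3 and Pmaip1. They were chosen by symbol, with earlier results of these data known, from a table of raw gene counts that holds 24421 genes. All 10 were among the 14154 genes that passed a filter on low counts. RNA sequencing was run on 8 fractions sorted by flow cytometry from the bone marrow of C57BL/6 mice, which the study's methods describe as female, at 10 weeks of age (Young) and at 20 months (Aged). Neither age carried a transgene, a deletion or a treatment, and each of the 16 groups had 2 libraries, 32 in all. Total counts ran from 11237384 to 17723245 per library, with a median of 13489609.5.

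By the labels, hematopoietic stem cells (HSCs) and the multipotent progenitors MPP1 to MPP4 shared the gate Lin-, IL-7-, Sca-1+ and c-kit+. Within it, HSCs were CD34- while all MPPs were CD34+. CD150+ CD48- cells without Flt3 were taken as HSCs and MPP1, CD150+ CD48+ cells without Flt3 as MPP2, and CD150- CD48+ cells as MPP3 when Flt3- and as MPP4 when Flt3+. Granulocyte-macrophage progenitors (GMPs) were Sca-1- and positive for FcgR and CD34, and megakaryocyte-erythrocyte progenitors (MEPs) were Sca-1- and negative for both. Common lymphoid progenitors (CLPs) were IL-7+ with low Sca-1 and low c-kit. The study describes the marrow in one place as pooled by age and sorted in duplicate, so the errors and p-values below may hold only the spread between sorts and libraries and not that between mice. Genes of the sorting antigens followed the gates in part. In young cells Slamf1 (CD150) averaged 53.9 normalized CPM in HSCs and 0.321 in MPP4, Flt3 averaged 1063 in MPP4, Fcgr3 averaged 481 in GMPs and Il7r averaged 158 in CLPs. Yet Flt3 averaged 279.5 in young MPP3, which were sorted as Flt3-, and Cd34 averaged 204 in young HSCs, sorted as CD34-. Ly6a (Sca-1) averaged 35.2 in young and 214 in aged CLPs and was called higher in the aged, although both were gated as low. Normalized CPM means counts divided by the library's total and put on the usual CPM scale, scaled by TMM, which removes differences in composition between libraries. These are bulk libraries, so fewer cells of one type and less RNA per cell cannot be told apart.

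Apoptosis through the mitochondrion is set by 3 classes of Bcl2 family protein. Survival proteins hold Bax and Bak1 in check, BH3-only proteins bind and neutralize the survival proteins or activate the effectors, and free Bax and Bak1 form pores in the outer mitochondrial membrane that release cytochrome c. In blood formation Mcl1 is known to be needed for the survival of stem cells and early progenitors, Bcl2 for the persistence of lymphoid cells, and Bcl2l1 (Bcl-xL) for late erythroid cells and platelets.

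The sequences before the start sites are shown for Mcl1, Bcl2, Bax and Bbc3, the 4 genes whose difference between ages varied over the fractions. Each run holds the 250 bases before a RefSeq start site of build GRCm38.p6, on the strand of the gene, 5' to 3', with capitals for every match to a motif searched on both strands. The Mcl1 window is chr3:95658471-95658720 on the + strand and the Bcl2 window is chr1:106714291-106714540 on the - strand, and neither overlaps a transcript of the GENCODE M21 annotation. The Bax window is chr7:45466899-45467148 on the - strand, inside an intron of the overlapping gene Gm45808. For Bbc3 the most upstream of 3 windows is shown, chr7:16309333-16309582 on the + strand, inside an intron of an annotated Bbc3 transcript.
Mcl1: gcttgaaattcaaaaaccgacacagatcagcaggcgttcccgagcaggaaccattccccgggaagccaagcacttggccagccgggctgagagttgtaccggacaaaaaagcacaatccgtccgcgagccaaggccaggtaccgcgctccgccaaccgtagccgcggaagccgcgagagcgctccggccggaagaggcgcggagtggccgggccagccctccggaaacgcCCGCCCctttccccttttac
Bcl2: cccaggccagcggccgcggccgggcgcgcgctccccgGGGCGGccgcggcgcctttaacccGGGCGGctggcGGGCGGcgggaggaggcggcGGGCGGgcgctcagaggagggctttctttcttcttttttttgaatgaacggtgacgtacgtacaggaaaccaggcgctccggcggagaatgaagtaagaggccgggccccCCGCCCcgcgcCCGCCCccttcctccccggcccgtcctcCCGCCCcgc
Bax: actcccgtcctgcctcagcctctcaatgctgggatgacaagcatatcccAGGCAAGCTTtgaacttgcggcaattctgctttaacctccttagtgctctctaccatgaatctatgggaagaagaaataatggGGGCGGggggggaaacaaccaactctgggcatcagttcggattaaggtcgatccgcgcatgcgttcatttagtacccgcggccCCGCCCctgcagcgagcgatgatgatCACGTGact
Bbc3: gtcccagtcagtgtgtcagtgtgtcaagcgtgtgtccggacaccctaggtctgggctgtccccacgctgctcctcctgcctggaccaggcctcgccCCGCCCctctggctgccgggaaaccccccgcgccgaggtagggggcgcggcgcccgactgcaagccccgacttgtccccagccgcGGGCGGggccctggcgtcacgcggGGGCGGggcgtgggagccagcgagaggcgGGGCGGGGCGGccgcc

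The motifs searched were the GC box (GGGCGG), the CCAAT box (CCAAT), the TATA box (TATAAA), the E-box (CACGTG), the cyclic AMP response element (TGACGTCA), the STAT site (TTCNNNGAA), the FOXO site (TGTTTAC) and the p53 half-site, the unit of the element that the tumour suppressor p53 binds. RefSeq windows were matched for 9 of the 10 genes, 15 windows in all. GC boxes were in 10 of these 15 windows, and in 32.742% of 32851 windows of all genes. By gene they were in 7 of the 9, for which no share over all genes was taken. Windows of the same gene are not separate. All those of Bbc3 held a GC box, and its windows chr7:16310011-16310260 and chr7:16310181-16310430 overlap. Mcl1 had 1 GC box, 20 bases before the start, whereas the GC-rich Bcl2 window held 7 and the Bbc3 window 5, of which the last 2 overlap. The Bax window held 2 GC boxes, an E-box 9 bases before the start, and the p53 half-site found in 1 of the 15 windows, which began 201 bases before the start. E-boxes were in 6.021% of all windows and p53 half-sites in 7.126%. FOXO sites were in windows of 2 members, Bcl2l11 and Bbc3, and in 3.166% of all windows. CCAAT boxes were in 4 of the 15 windows and in 33.85% of all windows. None of the 15 windows held the TATA box (12.368% of all), the cyclic AMP response element (1.546%) or the STAT site (7.02%). These matches describe letters in the window and not bound sites.

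To see how the survival genes were set across the marrow hierarchy, the 8 fractions were compared within each age. Mcl1, on chr3:95658788-95663176, was the most abundant of the 3 in every group, and its level was high in the stem cell and multipotent compartment and low in the committed progenitors. In young mice it stood at 847 ± 153 normalized CPM in MPP4 (SD, n = 2), 749.9 ± 13.8 in HSCs, 709.8 ± 19.2 in MPP1, 579 ± 29.4 in MPP3 and 537 ± 14.4 in MPP2. It was 354 ± 12.6 in CLPs, 272 ± 7.10 in MEPs and 259.8 ± 19.8 in GMPs. Among neighbours in this order, the steps from MPP2 to CLPs (adjusted p = 4.83e-06, edgeR quasi-likelihood F-test with Benjamini-Hochberg adjustment over all genes, as for each adjusted p below) and from CLPs to MEPs (5.15e-04) passed the threshold of 0.01, at which a gene is said to be called. The other neighbours were not called, from MPP4 to HSCs (adjusted p = 0.1) down to MEPs against GMPs (0.564). In aged mice HSCs stood first at 714 ± 38.3, and the step down to MPP1 at 503 ± 14 was called (adjusted p = 9.4e-05).

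Bcl2, on chr1:106538178-106714274, ran on another axis, with its highest level in CLPs and its lowest in MEPs. Young CLPs had 164 ± 7.61 normalized CPM, young HSCs and MPPs and GMPs had 63.0 to 95.0, and young MEPs had 14.4 ± 3.38, an 11.4-fold range. The steps from CLPs to MPP4 (adjusted p = 1.27e-04) and from HSCs to MEPs (1.27e-10) were called, and the 5 steps between them were not. Over aged fractions the range was 37.6-fold, from 187 ± 53.9 in CLPs to 4.99 ± 1.70 in MEPs. There the step from MPP4 (130.1 ± 1.75) to MPP2 (87.8 ± 0.0719) was called as well (adjusted p = 0.00991).

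Bcl2l1, on chr2:152780668-152831728, had its highest level in HSCs and its lowest in MEPs. It was 80.9 ± 4.68 normalized CPM in young HSCs, 68.0 ± 5.85 in CLPs, 62.9 ± 0.682 in MPP1 and 62.5 ± 5.68 in MPP2. MPP3 followed at 46.4 ± 0.282, MPP4 at 37.2 ± 1.37, GMPs at 32.5 ± 4.31 and MEPs at 29.7 ± 0.422. No neighbouring pair in this young order was called, the closest being MPP2 against MPP3 (adjusted p = 0.0101), although 20 of the 28 pairs of fractions were. In the aged order the step from MPP3 to GMPs (adjusted p = 0.00198) and that from MPP4 to MEPs (2.68e-04) were called.

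**Figure D1:**
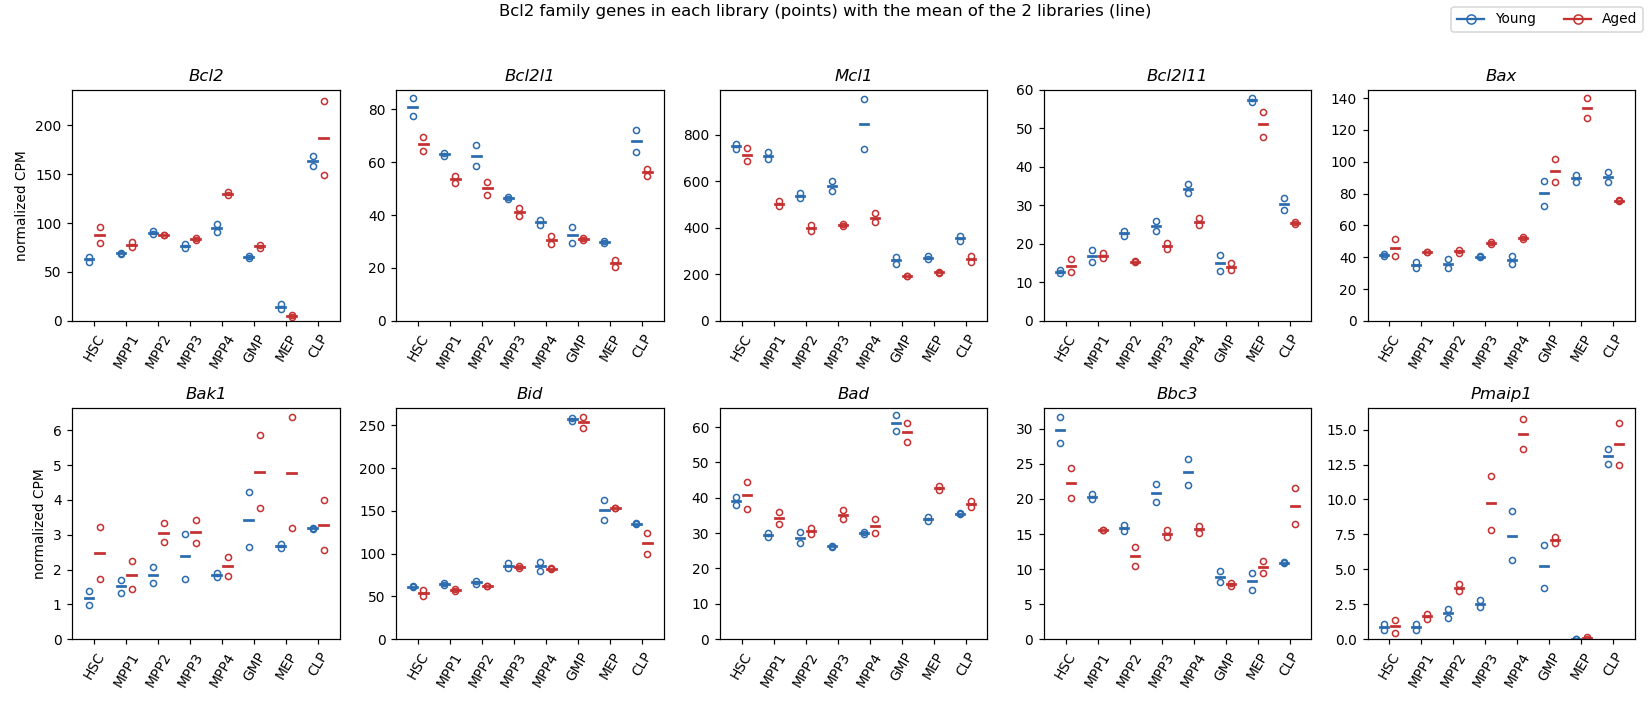
Normalized CPM of the 10 genes (vertical axes, each on its own scale from 0) in the 8 fractions (horizontal axes), with 1 circle per library, blue for Young and red for Aged, and a line at the mean of 2 libraries. Mcl1 is lower in the aged libraries of every fraction but HSCs, where the ages overlap, and Bcl2 is lowest in MEPs at 3.79 to 16.8.

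Of the effector genes, Bax, on chr7:45461697-45466898, was higher in the committed progenitors than in HSCs and MPPs. Young GMPs, MEPs and CLPs had 80.1 ± 10.9, 89.5 ± 3.39 and 90.3 ± 4.59 normalized CPM, and the 5 less mature fractions had 35.0 to 41.5. The step from GMPs down to HSCs was called (adjusted p = 1.06e-07), and no step on either side of it was. Bak1, on chr17:27019810-27029009, was near the lower end of what these libraries measure, at 0.978 to 6.37 normalized CPM and 15 to 68 counts per library. It was the single member whose level did not pass the test of any difference over the 8 fractions (adjusted p = 0.0195 in young and in aged mice), although with offsets for GC and length all 10 members passed it in young mice. By that test 9 of the 10 members varied in each age, where 86.9% of all genes tested in young mice and 85.5% in aged mice did.

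The BH3-only genes had separate centres. Bid (chr6:120891930-120916853), the protein that carries death receptor signals to the mitochondrion after cleavage by caspase 8, peaked in GMPs at 257 ± 2.75 normalized CPM in young mice, above MEPs at 151 ± 16.5 (adjusted p = 1.21e-07) and HSCs at 61.5 ± 0.928. Bcl2l11 (Bim, chr2:128126038-128162547), which binds all survival proteins, peaked in MEPs at 57.4 ± 0.612, above MPP4 at 34.3 ± 1.61 (adjusted p = 1.41e-05), and was lowest in HSCs at 12.7 ± 0.564. Bad (chr19:6941861-6951899), which growth factor signals switch off by phosphorylation, was highest in GMPs at 61.2 ± 3.30, above HSCs at 39.1 ± 1.70 (adjusted p = 1.97e-06). The 2 BH3-only genes best known as p53 targets differed in place. Bbc3 (Puma, chr7:16308393-16318205) was highest in young HSCs at 29.8 ± 2.70 and lowest in MEPs at 8.26 ± 1.72. Pmaip1 (Noxa, chr18:66458533-66465565), whose protein binds Mcl1, was highest in young CLPs at 13.1 ± 0.764, was 0.852 ± 0.283 in HSCs and had 0 counts in both young MEP libraries. A count of 0 allows up to 3 counts, or 0.186 to 0.281 normalized CPM depending on the library, for counting error only. Summed over the 10 genes, 166 of the 280 tests between pairs of fractions were called in young mice and 166 in aged mice, where 42.4% and 40.8% of such tests over all genes were.

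Exons of 3 members overlap genes of the opposite strand that are in the same table, Bak1 with Ggnbp1, Bid with Bcl2l13 over 628 bases and Bad with Gpr137 over 524 bases. No use of strand was stated for these counts, so reads from such overlaps cannot be told apart. Bcl2 also overlaps an antisense transcript over 558 bases and Bax a same-strand gene, Gm45808, over 192 bases, neither of which is in the table under that name.

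Dividing by exon length allowed levels of different genes to be set side by side, as shares of summed CPM per kilobase within a class. Mcl1 made up most of the survival class in every group, from 70.4% ± 5.32 (SD, n = 2) in aged CLPs to 93.0% ± 1.06 in young MPP4. Bcl2 was the second largest share in CLPs, at 13.1% ± 0.761 in young and 18.5% ± 5.09 in aged mice, and reached 0.823% ± 0.276 in aged MEPs. It was second as well in MPP4 and GMPs of both ages and in aged MPP3. In young GMPs (7.93% against 7.85% for Bcl2l1) and aged MPP3 (6.60% against 6.46%) this was by a narrow margin. In aged MPP4 the share of Bcl2 was 9.46% ± 0.356, against 3.93% ± 0.426 in young MPP4, and the 2 pairs of libraries did not overlap. Bax was 95.6% to 98.2% of the summed level of Bax and Bak1. Bid led the BH3-only class in 15 of the 16 groups, up to 69.8% in aged GMPs, and in aged HSCs Bad stood at 36.3% and Bid at 34.8%. These shares depend on the length used. With the longest transcript in place of all exons, the share of Mcl1 ran from 62.0% to 89.8%. In young CLPs Bcl2l1, at 17.3% ± 1.53, then came before Bcl2, at 14.9% ± 0.726. Bcl2l1 then came before Bcl2 in young MPP4, aged MPP3 and GMPs of both ages too. Bid and Bad then both stood at 36.3% in young HSCs, and in aged HSCs Bad was at 41.2% and Bid at 34.8%.

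**Figure D2:**
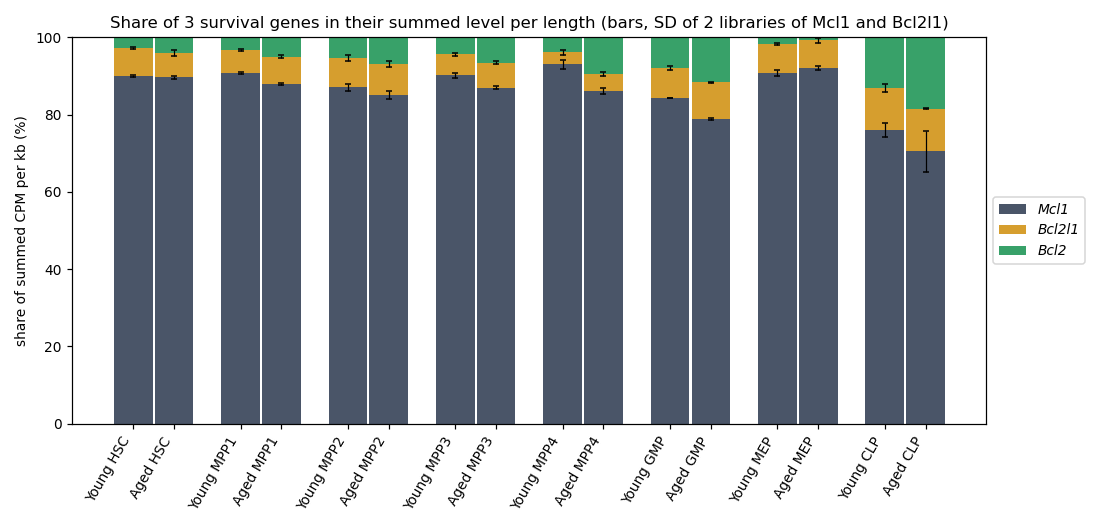
Share (percent, vertical axis from 0) of Mcl1, Bcl2l1 and Bcl2 in their summed level per kilobase of exon, for each fraction and age (horizontal axis). Stacked bars are means of 2 libraries, and error bars give the SD for Mcl1 and for Bcl2l1. Mcl1 holds 70.4% to 93.0%, and the Bcl2 share is largest in CLPs.

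Fraction held most of the variance of each gene in log2 CPM, from 56.2% for Bak1 to 98.3% for Bid. Age within fraction held 22.4% for Bak1, 17.4% for Bbc3, 14.6% for Mcl1, 10.3% for Bad and under that for the others, down to 0.97% for Bid. Duplicates accounted for 21.4% of the variance of Bak1 and for 3.69% or less of that of each other member.

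The main comparison was between ages within each fraction. In HSCs, where 5.4% of all genes tested were called by edgeR, 0 of the 10 genes were, with 4 of them at an unadjusted p under 0.05 and 1, Bcl2, called by DESeq2. Of the 10 genes MPP1 had 1 called, against 6.8% of all genes tested, MPP2 had 2 (7.81%), and MPP3 and MPP4 had 3 each (13.9% and 16.6%). GMPs had 1 member called (18.9% of all), MEPs had 4 (20.8%) and CLPs had 2 (10.4%). In 7 of the 8 fractions 1 of those called was Mcl1, lower in aged cells. The median log2 fold change of the members (9 in MEPs, where Pmaip1 has no fold) lay between -0.10 in CLPs and 0.10 in HSCs, where the median of all genes tested was 0 and 0.02. With 10 genes these shares move in steps of 10%, and no test set the members against the other genes.

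Mcl1 fell with age in MPP1 to MPP4, GMPs, MEPs and CLPs, and was not called in HSCs. Being called lower in at least 7 fractions was true of 21 of the 14154 genes tested, or 0.148%. In HSCs the young libraries had 759.6 and 740.2 normalized CPM and the aged libraries 741 and 687, and the ages overlapped (log2 fold change -0.07, SE 0.09, adjusted p = 0.703).

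The largest drop of Mcl1 was in MPP4, the progenitor with lymphoid potential. Young MPP4 libraries had 955 and 739 and aged ones 461 and 423 normalized CPM, a log2 fold change of -0.94 (SE 0.09, adjusted p = 1.29e-07), and the lower young library was still above both aged ones. MPP1 had 723 and 696 in young and 513 and 493 in aged libraries (-0.50, SE 0.09, adjusted p = 4.73e-04). MPP3 had 600.3 and 559 against 415 and 408 (-0.49, SE 0.09, adjusted p = 2.55e-04). Neither fraction had an aged library within the range of the young ones.
MPP2 had 547 and 527 in young and 385 and 412 in aged libraries (-0.43, SE 0.09, adjusted p = 0.00178). GMPs had 246 and 274 against 194 and 191 (-0.43, SE 0.09, adjusted p = 7.4e-04). MEPs had 267 and 277 against 209 and 206 (-0.39, SE 0.09, adjusted p = 0.00176). In all of these the ages were apart. CLPs had 363 and 345 against 278 and 254 (-0.41, SE 0.09, adjusted p = 0.00189), also without overlap.

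Under 11 alternative settings the direction of these 7 differences held, and in MPP4 so did the call, with adjusted p up to 0.0049. Calls elsewhere were lost in GMPs with offsets for GC and length (-0.35, adjusted p = 0.0108), in the fits on 4 libraries in MEPs (0.0133) and CLPs (0.0358), and in some fits with 1 library fewer: in MPP1 without young replicate 1 (adjusted p = 0.0105) or aged replicate 2 (0.0216), in MPP3 without young replicate 1 (0.0138) or aged replicate 2 (0.0102), in GMPs without young replicate 2 (0.013) or aged replicate 2 (0.0102), in MEPs without aged replicate 1 (0.0104) or 2 (0.013), in CLPs without young replicate 1 (0.0257) or 2 (0.0102) or aged replicate 2 (0.0262), and in MPP2 without any one of its 4 libraries (0.0117 to 0.055).

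Other gene groups moved in the same fractions. Of 10 cell cycle genes, 9 were called higher in aged HSCs and as many in MPP3, 8 in MPP1 and as many in GMPs, 7 in MPP2 and 6 in MPP4, while CLPs had 5 called lower and MEPs 1 called in each direction. Their summed level was 1060 to 1100 normalized CPM in young and 1550 to 1560 in aged MPP1, and 1520 to 1600 against 2330 to 2430 in MPP4. Of 7 macrophage markers, 5 were called lower in aged MPP3 and 5 in aged MPP4. Their sums were 112 to 119 against 32.2 to 32.4 and 48.8 to 54.2 against 9.83 to 11.9. None of the 7 was at 0 in both libraries of these groups. Fewer were called lower in HSCs (2), MPP1 (2), MPP2 (3), GMPs (4) and MEPs (4), and all 7 were in CLPs. In HSCs the cell cycle genes summed to 170 to 175 normalized CPM in young mice against 303 to 333 in aged mice. The macrophage markers summed to 37.4 to 47.6 in young against 15.9 to 24.1 in aged HSCs. The part of either gene group in the Mcl1 difference was not tested.

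**Figure D3:**
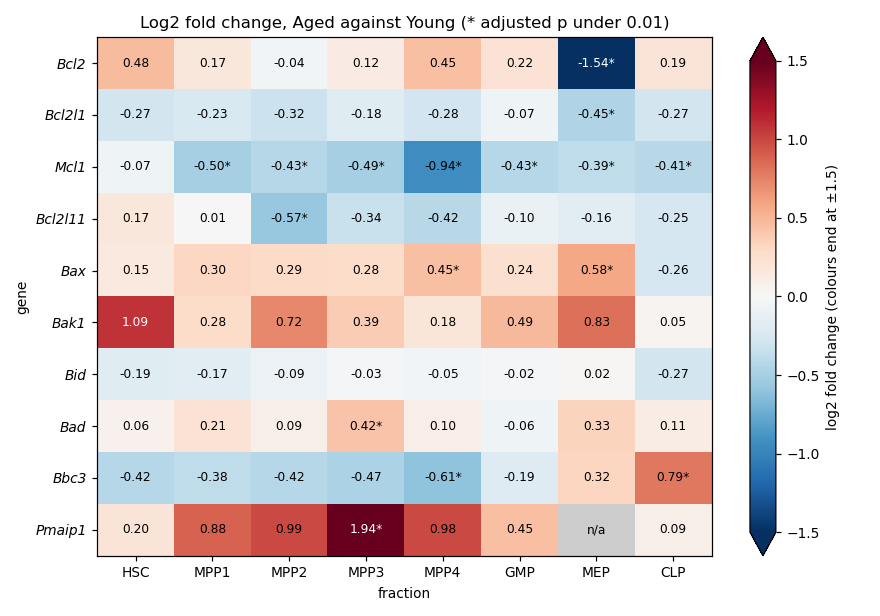
Log2 fold change, Aged against Young, of each gene (rows) in each fraction (columns), printed in the cells and shown by colour from blue (lower in Aged) to red (higher), with colours ending at ±1.5. A star marks an adjusted p under 0.01 and n/a the gene with no more than 3 counts in either age. Mcl1 carries a star in 7 columns, and Bcl2 in MEPs has the largest drop at -1.54.

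Bcl2 fell in aged MEPs and was called in no other fraction by edgeR on all libraries. Young MEP libraries had 16.8 and 12 normalized CPM (262 and 167 counts) and aged ones 6.18 and 3.79 (66 and 44 counts), a log2 fold change of -1.54 (SE 0.21, adjusted p = 1.08e-05). Both aged libraries were below both young ones, and the call held without any one of the 4. In the fit on these 4 libraries alone, which has fewer samples, adjusted p was 0.0198. Elsewhere aged means were above young ones in 6 fractions. In MPP4 the young libraries had 99.1 and 90.9 and the aged ones 131 and 129 (0.45, SE 0.15, adjusted p = 0.0264), and in HSCs 65.6 and 60.4 against 95.5 and 80.1 (0.48, SE 0.15, adjusted p = 0.0422). Neither was called, though in both the ages were apart, and each was under an alternative, MPP4 in the fit on its 4 libraries (adjusted p = 0.00992) and HSCs by DESeq2 (0.00652). In CLPs the aged libraries, at 149 and 225, lay on either side of the young ones at 158 and 169.1, and the log2 fold change of 0.19 turned to -0.15 without aged replicate 2.

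MEP libraries also differed in markers of other cells. Of 8 B-lineage markers 7 were called lower in aged MEPs, with a sum of 183 to 194 normalized CPM in young mice against 0.43 to 1.22 in aged mice, and Cd79a, Ebf1, Pax5, Igll1 and Rag1 were at 0 in both aged libraries. Il7r averaged 13.4 in young and 0.309 in aged MEPs. The 7 erythroid markers, none of which was called, summed to 5900 in both young and to 6940 to 7150 in the aged libraries. The part of the B-lineage signal in the Bcl2 difference was not tested.

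Bcl2l1 was lower in the aged mean of all 8 fractions and was called in MEPs by edgeR. Young MEP libraries had 30.0 and 29.4 and aged ones 20.2 and 23.1 normalized CPM (log2 fold change -0.45, SE 0.10, adjusted p = 0.0021), with no overlap. That call was lost without aged replicate 1 (-0.39, adjusted p = 0.0312) and in the fit on the 4 MEP libraries (0.0513). In the other fractions the log2 fold change ran from -0.32 in MPP2 (adjusted p = 0.0278) to -0.07 in GMPs (0.702). Bcl2l1 was called in MPP2 (adjusted p = 0.00369) and MPP4 (0.00658) by DESeq2, and in CLPs with the replicate block and the offsets for GC and length together (0.00838). By edgeR the difference did not vary by the test over the 8 fractions (adjusted p = 0.453). In MEPs all 3 survival genes were called lower.

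Bax rose in aged MEPs and MPP4. MEP libraries had 91.9 and 87.1 normalized CPM in young and 140.0 and 127 in aged mice (log2 fold change 0.58, SE 0.11, adjusted p = 2.94e-04), with the aged libraries above both young ones. MPP4 had 35.8 and 40.7 against 52.7 and 51.6 (0.45, SE 0.11, adjusted p = 0.00488), again without overlap. The MEP call held without any one library, while the MPP4 call was lost without young replicate 1 (0.36, adjusted p = 0.0881), aged replicate 1 (0.0258) or aged replicate 2 (0.0201), with DESeq2 size factors (0.0103) and with no filter (0.0121). In the fit on the 4 libraries of the fraction, Bax was not called in MEPs (adjusted p = 0.0103) or in MPP4 (0.0178). HSCs, the other MPPs and GMPs had log2 fold changes of 0.15 to 0.30, none of them called. CLPs went the other way without being called, at 87.1 and 93.6 in young and 75.4 and 75.9 in aged libraries (-0.26, SE 0.11, adjusted p = 0.108). Bak1 was above the young mean in each of the 8 aged means and called in none, with log2 fold changes of 0.05 to 1.09 and standard errors of 0.38 to 0.43 at 15 to 68 counts.

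Among the BH3-only genes Bbc3 was called in opposite directions in MPP4 and in CLPs. Young MPP4 libraries had 25.7 and 22.0 normalized CPM and aged ones 15.2 and 16.2 (log2 fold change -0.61, SE 0.16, adjusted p = 0.00651). CLPs had 11 and 10.9 in young and 21.5 and 16.4 in aged libraries (0.79, SE 0.16, adjusted p = 0.00163). In both fractions the ages were apart, and the aged CLP libraries differed from each other more than the young ones did. HSCs and MPP1 to MPP3 had log2 fold changes of -0.47 to -0.38 that were not called, the closest in MPP3 (adjusted p = 0.0355), and MEPs had 0.32 (0.166). In the fit on the 4 libraries of the fraction, Bbc3 was not called in MPP4 (adjusted p = 0.017) or in CLPs (0.0474). The MPP4 call was lost without young replicate 1 (-0.49, adjusted p = 0.0931), aged replicate 1 (0.0574) or aged replicate 2 (0.028), and the CLP call without young replicate 1 (0.0179) or 2 (0.0187) or aged replicate 1 (0.59, adjusted p = 0.0502).

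In CLPs, marker lists of other cells moved as well. All 7 macrophage markers were called lower, from a sum of 159 to 177 normalized CPM in young to 2.6 to 3.24 in aged libraries. Of these, Cd5l and Fcna were at 0 in both aged libraries. All 5 basophil and mast cell markers were called lower, from a sum of 1740 to 1790 normalized CPM in young to 8.26 to 12 in aged libraries, with Prss34 at 0 in both aged libraries. All 8 neutrophil markers were called lower (1880 to 1940 against 327 to 362), 6 of 8 B-lineage markers were (2600 to 2680 against 1270 in both), and 4 of 5 megakaryocyte markers were called higher (37.8 to 39.4 against 110 to 167). The part of these lists in the CLP differences of Bbc3, Mcl1 and Bax was not tested.

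Pmaip1 showed the largest fitted fold change among the 10 genes, in MPP3. Young MPP3 libraries had 2.29 and 2.79 normalized CPM (33 and 36 counts) and aged ones 7.84 and 11.7 (117 and 160 counts), a log2 fold change of 1.94 (SE 0.38, adjusted p = 7.82e-04), and the ages were well apart. The other MPPs had log2 fold changes of 0.88 to 0.99 that were not called, with MPP4 at 9.16 and 5.63 against 13.6 and 15.8 (0.98, adjusted p = 0.0378). Without young MPP3 replicate 1 adjusted p was 0.0166 and without aged replicate 2 it was 0.0136. MEPs had 0 and 0 counts in young and 2 and 0 in aged libraries, and no fold is given. MPP3 libraries had 5 of 7 erythroid and 4 of 8 neutrophil markers called lower in aged mice, with sums of 207 to 345 against 30.3 to 30.9 and of 4390 to 4660 against 2240 to 2250, and their part in the Pmaip1 difference was not tested.

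Bcl2l11 fell in aged MPP2, at 22.1 and 23.4 normalized CPM in young and 15.5 and 15.2 in aged libraries (log2 fold change -0.57, SE 0.13, adjusted p = 0.00547). The ages were apart, and the call was lost without any one of the 4 libraries (adjusted p = 0.0304 to 0.0682). Aged MPP2 also had 4 of 8 neutrophil markers called lower (sums of 2470 to 2590 normalized CPM in young against 1830 to 1850 in aged mice), 4 of 7 erythroid (231 to 274 against 44.4 to 53.8), 3 of 7 macrophage (136 to 147 against 43.2 to 44.3), 3 of 5 megakaryocyte (321 to 331 against 288 to 298), and 3 of 5 basophil and mast cell markers, with 1 higher (72 to 73.9 against 41 to 43). None of these markers was at 0 in both libraries of a group, and their part in the Bcl2l11 difference was not tested. In MPP4 Bcl2l11 had 35.5 and 33.2 against 24.9 and 26.6 and was not called (-0.42, adjusted p = 0.0179), although it was with DESeq2 (0.00141), with DESeq2 size factors (0.00966) and with offsets for GC and length (0.00834). Bad rose in aged MPP3, from 26.4 and 26.2 to 36.6 and 34.0 (0.42, SE 0.10, adjusted p = 0.00256), without overlap. That call was lost without young replicate 1 (0.0113) or 2 (0.0119) or aged replicate 1 (0.0171). Nor was Bad called in the fit on the 4 MPP3 libraries (adjusted p = 0.019). In MEPs Bad was just short of the threshold, at 33.4 and 34.5 against 43.4 and 42.1 (0.33, adjusted p = 0.0102). Bid, the BH3-only gene with the highest level, was called in no fraction. Its log2 fold changes ran from -0.27 in CLPs (adjusted p = 0.0378) to 0.02 in MEPs, and without aged CLP replicate 2 the CLP difference was called (-0.45, adjusted p = 0.00102).

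The last comparison asked whether the difference between ages was itself different between fractions, by a test of all 8 differences in one fit. It was for 4 of the 10 genes, Bcl2 (adjusted p = 9.56e-05), Bbc3 (3.27e-04), Mcl1 (6.9e-04) and Bax (0.00571), where 34.9% of all genes tested were called. For Bcl2l11 (0.0418), Bad (0.0624), Pmaip1 (0.0783), Bid (0.413), Bcl2l1 (0.453) and Bak1 (0.722) it was not. With offsets for GC and length Bad was called as well (adjusted p = 0.00594), 5 of the 10 genes in all. The Bcl2 and Bbc3 calls held without each of the 32 libraries in turn. Mcl1 was no longer called without aged MPP4 replicate 2 (adjusted p = 0.0153), and Bax without any one of the 4 CLP libraries (up to 0.0235) or with no filter (0.0135).

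Each of HSCs, GMPs, MEPs and CLPs was then set against the mean difference of MPP1 to MPP4. In HSCs the Mcl1 difference was 0.52 higher on the log2 scale than that mean (SE 0.10, adjusted p = 0.00192), the 1 call among the 10 genes where 3.01% of all genes tested were called. It was lost without young HSC replicate 1, young replicate 2 or aged replicate 1 (adjusted p up to 0.0458). In MEPs Bcl2 was 1.72 below the MPP mean (log2 difference -1.72, SE 0.23, adjusted p = 4.7e-06) and Bbc3 0.79 above it (SE 0.19, adjusted p = 0.00256), 2 of the 10 genes against 24.8% of all. With offsets for GC and length Bcl2l1 was called there too (adjusted p = 0.00793), making 3. Without young MEP replicate 1 or aged MEP replicate 2 Bbc3 was not called (adjusted p up to 0.0484). In CLPs Bbc3 was 1.27 above that mean (SE 0.18, adjusted p = 1.62e-05) and Bax below it by a log2 difference of -0.59 (SE 0.12, adjusted p = 7.81e-04), 2 of the 10 against 22.6%. Both CLP departures held without each of the 32 libraries in turn. In GMPs 0 of the 10 genes were called by edgeR, where 26.6% of all were, with 1 at an unadjusted p under 0.05, and with offsets for GC and length 1 was, Bad.

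**Figure D4:**
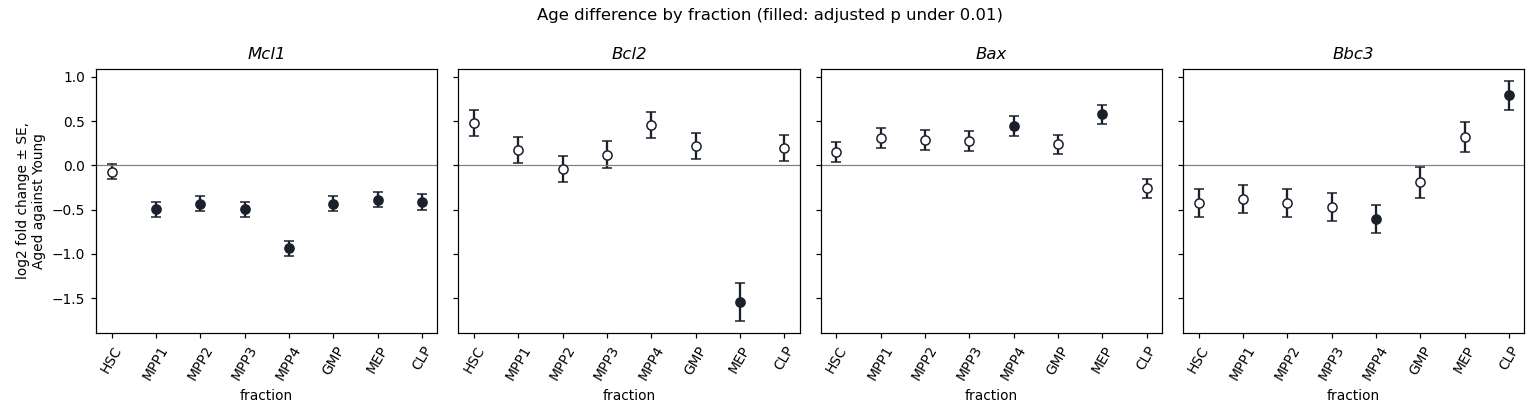
Log2 fold change, Aged against Young (vertical axis), of the 4 genes whose age difference varied over the fractions, with 1 point per fraction (horizontal axis) and bars of 1 standard error. Filled points have an adjusted p under 0.01. Mcl1 sits near 0 in HSCs and lowest in MPP4 at -0.94, Bcl2 stands apart in MEPs, and Bbc3 lies above 0 in MEPs and CLPs.

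Other genes of cell death were read from lists of the wider family and pathway. Of 13 other Bcl2 family genes tested, 5 were called in aged MEPs, all lower, and at most 1 in each other fraction. Over all genes tested, 20.8% were called in MEPs and 5.4% to 18.9% in the other fractions. No test set these lists against the other genes. Bok, a relative of Bax, had 22 and 36 counts in young and 0 and 0 in aged MEPs, at least 7.4-fold lower against a floor of 3 counts per library, and in CLPs it had 38.9 and 31.8 normalized CPM in young and 16.8 and 15.8 in aged libraries (log2 fold change -1.12, SE 0.17, adjusted p = 9.8e-05). It was called higher in MPP1 (0.76, adjusted p = 0.00706) and MPP3 (0.75, adjusted p = 0.00378).

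The list of 17 genes of the apoptosome and caspases also held the inhibitors of apoptosis Xiap, Birc2, Birc3 and Birc5. Of the 17 genes, 7 were called higher in aged MPP4 and 6 in aged MPP3, with none lower in either. In GMPs 4 were called lower and 1 higher. These were 41.2%, 35.3% and 29.4% of the list, against 16.6%, 13.9% and 18.9% of all genes tested. Cycs, which encodes cytochrome c, was called higher in HSCs and MPP1 to MPP4, with log2 fold changes of 0.39 to 0.85, and lower in GMPs (-0.58, adjusted p = 5.2e-06) and MEPs (-0.29, adjusted p = 0.00448). In MPP4 it had 153 and 176 normalized CPM in young and 304 and 292 in aged libraries. Birc5 (survivin), an inhibitor of apoptosis that also serves in cell division and is among the 10 cell cycle genes above, was called higher in 6 fractions and lower in CLPs. Its log2 fold change was 1.04 in HSCs (SE 0.11, adjusted p = 9.36e-07), 0.80 in MPP3 and -0.62 in CLPs.

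Of 19 regulators tested, 4 were called lower and 2 higher in MPP4, 31.6% of them where 16.6% of all genes tested were called. Pim2, a kinase that phosphorylates Bad, had 97.3 and 94.7 normalized CPM in young and 212 and 233 in aged HSCs (1.21, SE 0.12, adjusted p = 4.46e-07) and was called higher in MPP1 (1.09), MPP2 (0.76) and MPP3 (0.46) as well. Its relative Pim3 was called lower in MPP1 to MPP4 and CLPs, with log2 fold changes of -0.83 to -0.54. Foxo3, a transcription factor that drives Bcl2l11 and Bbc3, was called lower in MPP4 (-1.11, SE 0.30, adjusted p = 0.00826), from 12.1 and 9.06 to 5.56 and 4.27. Of 9 death receptor genes tested, 1 was called in GMPs (11.1%), 2 in MEPs (22.2%) and 1 in CLPs (11.1%). Over all genes tested the shares there were 18.9%, 20.8% and 10.4%. Cflar, an inhibitor of caspase 8, was the gene called in GMPs, at 44.5 and 24.3 in young and 59.1 and 60.2 in aged libraries (0.80, SE 0.22, adjusted p = 0.00828).

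Likeness of pattern was read as Pearson's r of log2 CPM over the 16 group means, which share libraries within a group and the same scaling, and is given as a description. Between members, Mcl1 ran with Bbc3 (r = 0.861) and opposite to Bax (-0.894) and Bid (-0.824), and Bcl2 ran with Pmaip1 (0.825). Each r of Pmaip1 includes MEP means at the floor, from 0 to 2 counts per library, and Bcl2 was lowest in MEPs too. Over all genes tested the closest to Mcl1 were Sugct (0.9635), Tob1 (0.9545) and Myo15 (0.954), and to Bcl2 they were Arhgap27 (0.981), Calhm2 (0.978) and Klhl6 (0.977). The closest to Bcl2l1 were Scrn1 (0.929), Gm11346 (0.926) and Gnai1 (0.925). For Bax they were Zmat2 and Acd (0.9805 for each) and Fkbp8 (0.975), and for Bak1 they were Cuta (0.911), Ccdc124 (0.89) and Tssc1 (0.889). Bid had Erp29 (0.969), Tceb3 (0.964) and Hspa5 (0.958), Bad had Acot8 (0.935), Ufc1 (0.933) and Tpgs1 (0.932), and Bcl2l11 had Wac (0.949), Ap2a2 (0.939) and Map4k5 (0.9325). Bbc3 had Pogz (0.942), Rrad (0.941) and Pbld1 (0.940), and Pmaip1 had H2afy (0.965), Sntb1 (0.950) and Mmd (0.940).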

How the data were processed

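RNA was amplified from sorted fractions, sequenced and mapped to mm10 by the authors; per the labels their notes name TopHat2 2.0.13, Bowtie2 2.1.0, StringTie and DESeq2, with no role given here for each. The deposited values used are raw whole-number counts per gene, 1 column per library. Tables of the authors' normalized values (20 columns matched no sample by name) and of their fold changes and p-values were not used. Counts were scaled by TMM (factors 0.807 to 1.11) and fitted in edgeR 4.0.16 (R 4.3.3), with 1 mean per group over all 32 libraries and 16 residual degrees of freedom. Genes were kept by filterByExpr, leaving 14154 of 24421. Contrasts were tested by the quasi-likelihood F-test with Benjamini-Hochberg adjustment over all genes tested, and called at an adjusted p under 0.01. The scripts were tested on simulated data. Annotation was GENCODE M21, which 23350 symbols matched directly and 669 by an older symbol, and 402 did not match. Promoters came from RefSeq.

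The 10 genes and all gene lists were chosen with earlier results of these data known. From the other lists, genes were named when called in 1 direction in at least 5 of the 8 fractions or when the called gene with the largest absolute log2 fold change in a fraction, and beside each member the 3 genes most alike. Alternatives were DESeq2 1.42.0 and its size factors, no filter, fits on 4 libraries, a replicate block, offsets for GC content and length, other thresholds, and leaving out each library.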

Additional observations from a re-analysis of the deposited data

Results flagged for a closer look

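The difference between ages was not the same in the 8 fractions for Bcl2 (adjusted p = 9.56e-05), Bbc3 (3.27e-04), Mcl1 (6.9e-04) and Bax (0.00571), by edgeR's quasi-likelihood test of the interaction of age and fraction with Benjamini-Hochberg adjustment. Set against the mean difference of MPP1 to MPP4, Mcl1 stood out in HSCs by 0.52 on the log2 scale, with an aged to young difference near 0 where the MPPs were lower in aged mice. Bcl2 stood out in MEPs by -1.72, and its aged MEP libraries had 66 and 44 counts. Bbc3 stood out in MEPs by 0.79 and in CLPs by 1.27, and Bax in CLPs by -0.59. Young and aged MEPs and CLPs also differed in markers of other cell types and in genes of sorting antigens. The part of these in the differences was not tested.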

How the results depend on the processing

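By replicate number, the differences between duplicates correlated between ages by -0.0557 to 0.0704 over the fractions. The ages are different mice, so this cannot show whether libraries with the same number within an age came from the same sort. That was not tested, and the main fit treated the libraries as independent. The fit with a replicate block gave the same counts of members called as the fit without it, with 0 in HSCs, 1 each in MPP1 and GMPs, 2 each in MPP2 and CLPs, 3 each in MPP3 and MPP4 and 4 in MEPs, 4 for the test over fractions and 9 for the levels in each age. Together with offsets for GC and length it called 4 members in CLPs.

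Other settings moved the counts of members called. DESeq2 called 1 in HSCs and 5 in MPP4, and a threshold of 0.05 gave 1 in HSCs and 7 in MPP4. Asking also for a change of 0.5 or more on the log2 scale left 0 in MPP1 and GMPs, 1 each in MPP2, MPP3 and CLPs, and 2 in MEPs. The offsets left 0 in GMPs and gave 1 departure there. The fit on the 4 libraries of a fraction, which has fewer samples, called 0 in MEPs and in CLPs. Without 1 library the count ran from 0 to 0 in HSCs and MPP2, 0 to 1 in MPP1 and GMPs, 0 to 2 in MPP3 and CLPs, 1 to 3 in MPP4 and 2 to 4 in MEPs. Departures from the MPP mean then ran from 0 to 1 in HSCs, 0 to 0 in GMPs, 1 to 2 in MEPs and 2 to 3 in CLPs, the test over fractions from 3 to 4 (5 with the offsets, 3 with no filter), and the levels from 9 to 9 in young and 9 to 10 in aged mice. The cause of these moves was not tested, also for the fits with fewer samples.

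No called difference between ages turned its sign under any alternative: of the values of called differences 130 stayed called and 46 did not. Among differences that were not called, 651 values stayed so, 12 became called and 30 changed sign. Bcl2 in MPP2 was 0.0018 with the offsets and 0.0021 with offsets and block, Bcl2l11 in MPP1 was -0.011 with no filter, and Bid in MEPs was -0.018 with DESeq2 size factors, -0.055 with no filter, -0.018 with the offsets, -0.015 with offsets and block and -0.026 with DESeq2. Sign changes without 1 library, with the log2 fold changes over such fits, were found for Bcl2 in CLP (-0.15 to 0.46), Bcl2l1 in GMP (-0.21 to 0.055), Bcl2l11 in HSC (-0.052 to 0.33), Bcl2l11 in MPP1 (-0.12 to 0.15), Bcl2l11 in GMP (-0.29 to 0.084), Bax in HSC (-0.046 to 0.27), Bak1 in MPP1 (-0.050 to 0.59), Bak1 in MPP4 (-0.026 to 0.36), Bak1 in CLP (-0.33 to 0.34), Bid in MPP3 (-0.047 to 0.055), Bid in MPP4 (-0.13 to 0.040), Bid in GMP (-0.060 to 0.012), Bid in MEP (-0.12 to 0.091), Bad in HSC (-0.091 to 0.15), Pmaip1 in HSC (-0.83 to 0.70) and Pmaip1 in CLP (-0.068 to 0.22). Counts were lowest for Bak1, at 15 to 68 per library, and for Pmaip1, at 0 to 218, which limits the precision of both.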
